A study of Homo sapiens with 10 samples.

Results

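The retinoic acid genes described here are the 3 retinoic acid receptors RARA, RARB and RARG, the cellular retinoic acid binding proteins CRABP1 and CRABP2, the enzymes ALDH1A2 and ALDH1A3 that make retinoic acid, the enzymes CYP26A1 and CYP26B1 that break it down, and the retinal reductase DHRS3. They were chosen by gene symbol, and 8 of the 10 had a probe set under their symbol in the platform annotation, each with 1 probe set, among 21448 gene probe sets. CRABP1 and DHRS3 were not analysed here. Expression was measured on 10 whole-transcript Affymetrix arrays of total RNA from the human neuroblastoma cell lines SK-N-AS and SK-N-FI. The groups were SK-N-AS exposed to the conjugate (3 arrays, numbered 28, 29 and 30), SK-N-AS controls (3 arrays, 25, 26 and 27), SK-N-FI exposed to the conjugate (2 arrays) and SK-N-FI controls (2 arrays). The conjugate was BG-P1600-TAT, a PEGylated compound that the series title describes as directed at the norepinephrine transporter and the thyrointegrin αvβ3. It was given at 30 µM for 48 h, and controls received PBS for as long. In SK-N-AS the titles name BG-P-TAT, here read as the same agent. Both lines grew in the same serum-containing medium, and each is a single line, so that a difference between them is not one between tumour classes.

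Retinoic acid is made from retinol through retinal. Inside the cell it is carried by CRABP proteins, and in the nucleus it binds the retinoic acid receptors, which pair with retinoid X receptors on direct repeats of a short DNA half-site. RARB and CYP26A1 are classical direct targets of the receptors, so that their transcripts are often used as a readout of retinoic acid signalling, and CYP26 enzymes limit that signal. Retinoic acid drives the differentiation of many neuroblastoma lines in culture, and isotretinoin is used to treat the disease.

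The promoters of RARB and CYP26A1 are shown because these genes report receptor activity, and that of CRABP2 because its signal separated the lines most among these genes. Windows of 250 bases before and 50 bases after each annotated start (RefSeq, GRCh38.p14) were searched on both strands for direct repeats of the half-site AGGTCA or of its variants AGTTCA and also GGGTCA or the combined form GGTTCA, with spacers of 1, 2 or 5 bases. RARB, at 1 of its 4 starts, and CYP26A1, at 1 of its 2 starts, each held 1 repeat with a spacer of 5 bases. The windows of the other members, CRABP2 among them, held none. Of 35116 windows of this length, 0.0883% held a repeat with a spacer of 5, 0.0399% one with a spacer of 2 and 0.131% one with a spacer of 1. The RARB repeat lay 53 to 37 bases before the start (chr3:25428210-25428226, plus strand), and the CYP26A1 repeat lay 90 to 74 bases before it on the opposite strand (chr10:93073803-93073819). The repeats read 5′ to 3′ as follows, with the half-sites in capitals.
RARB repeat: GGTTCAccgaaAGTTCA
CYP26A1 repeat: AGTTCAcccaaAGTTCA
The 250 bases before each start follow, 5′ to 3′ on the strand of the gene, with the whole repeat in capitals where there is one. They lie at chr3:25428013-25428262 (plus strand), chr10:93073643-93073892 (plus strand) and chr1:156705785-156706034 (minus strand).
RARB: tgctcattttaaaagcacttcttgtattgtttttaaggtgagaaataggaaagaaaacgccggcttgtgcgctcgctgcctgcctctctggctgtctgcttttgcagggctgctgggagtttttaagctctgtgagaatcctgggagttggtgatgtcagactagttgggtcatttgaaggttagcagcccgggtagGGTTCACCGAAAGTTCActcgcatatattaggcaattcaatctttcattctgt
CYP26A1: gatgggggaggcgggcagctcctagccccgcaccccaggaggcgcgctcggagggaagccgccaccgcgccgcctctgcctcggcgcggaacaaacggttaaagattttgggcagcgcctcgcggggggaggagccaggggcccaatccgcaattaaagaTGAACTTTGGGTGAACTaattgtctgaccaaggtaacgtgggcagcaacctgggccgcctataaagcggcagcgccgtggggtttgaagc
CRABP2: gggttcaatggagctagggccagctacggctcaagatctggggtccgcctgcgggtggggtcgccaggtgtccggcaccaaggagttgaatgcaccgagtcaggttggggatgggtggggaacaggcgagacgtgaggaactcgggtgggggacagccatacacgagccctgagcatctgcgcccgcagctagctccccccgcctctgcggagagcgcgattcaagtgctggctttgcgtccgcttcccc
A match describes the letters and does not show that a receptor binds there. The arrays measured transcripts and not promoter use.

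Values are log2 signals as deposited. The 612 negative control probe sets (identifiers starting HTA2-neg) set the background of each array, and a gene counted as above it where its signal passed their 95th percentile, a threshold that lay between 6.75 and 7.23 in SK-N-AS and between 7.44 and 8.26 in SK-N-FI. The median of all probe sets lay between 6.02 and 6.09 on SK-N-AS arrays and between 7.02 and 7.07 on SK-N-FI arrays, so the lines appear to have been normalized apart. The negative control medians lay between 3.86 and 4.04 in SK-N-AS and between 4.02 and 4.05 in SK-N-FI, so the offset was not uniform. Levels set across lines may carry that offset. They are therefore also given after quantile normalization over all 10 arrays, and as each gene's percentile among the gene probe sets of its own array, which scaling does not move. Markers of the noradrenergic state were above background on all arrays for 3 of 7 genes in SK-N-AS and 6 of 7 in SK-N-FI, and mesenchymal markers for 6 of 8 in SK-N-AS and 3 of 8 in SK-N-FI. The log2 summed mesenchymal signal overlapped (14.53 to 14.80 in SK-N-AS and 14.65 to 14.76 in SK-N-FI), but VIM made up most of it (means of 14.51 and 14.22). As deposited, mean signals of VIM, FN1, FOSL1, YAP1, PRRX1 and TWIST1 were higher in SK-N-AS, and those of SNAI2 and CD44 were higher in SK-N-FI. No glial marker (SOX10, S100B or ERBB3) was above background on any array. Of the 4 leukocyte markers measured, CD68, a lysosomal protein not restricted to leukocytes, was above background on all 6 SK-N-AS arrays and PTPRC on 5, while CD3E and CD14 were on none, and in SK-N-FI none was. Of the 4 epithelial markers measured, KRT8 was above background on 5 of 6 SK-N-AS and 4 of 4 SK-N-FI arrays. EPCAM, CDH1 and KRT18 were above it on no array. The log2 summed signal of the leukocyte markers lay between 11.77 and 12.48 in SK-N-AS and between 7.37 and 8.08 in SK-N-FI, and that of the noradrenergic markers between 10.74 and 11.24 in SK-N-AS and between 15.65 and 16.00 in SK-N-FI. In SK-N-AS the leukocyte sum was mostly CD68 (mean 12.08, against 7.70 for PTPRC). The part of either set of markers in the differences between lines was not tested.

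The first question was which of these genes could be measured in each line. CRABP2, the protein that carries retinoic acid to the nuclear receptors, was above background on all 6 SK-N-AS arrays and on none of the 4 SK-N-FI arrays. RARA, the most widely expressed of the receptors, was above it on all arrays of both lines. RARG, the third receptor, exceeded it on 2 of 6 SK-N-AS arrays (control arrays 25 and 27) and ALDH1A3 on 1 (treated array 30), and neither did in SK-N-FI. RARB, CYP26A1, CYP26B1 and ALDH1A2 were above background on no array. Over all gene probe sets, between 32.9% and 39.7% were above background on each SK-N-AS array and between 38.3% and 44.3% on each SK-N-FI array. The receptor targets RARB and CYP26A1 were thus not detectable over the negative controls in either line, with or without the conjugate. This bounds the signal and does not show that the transcripts are absent.

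**Figure D1:**
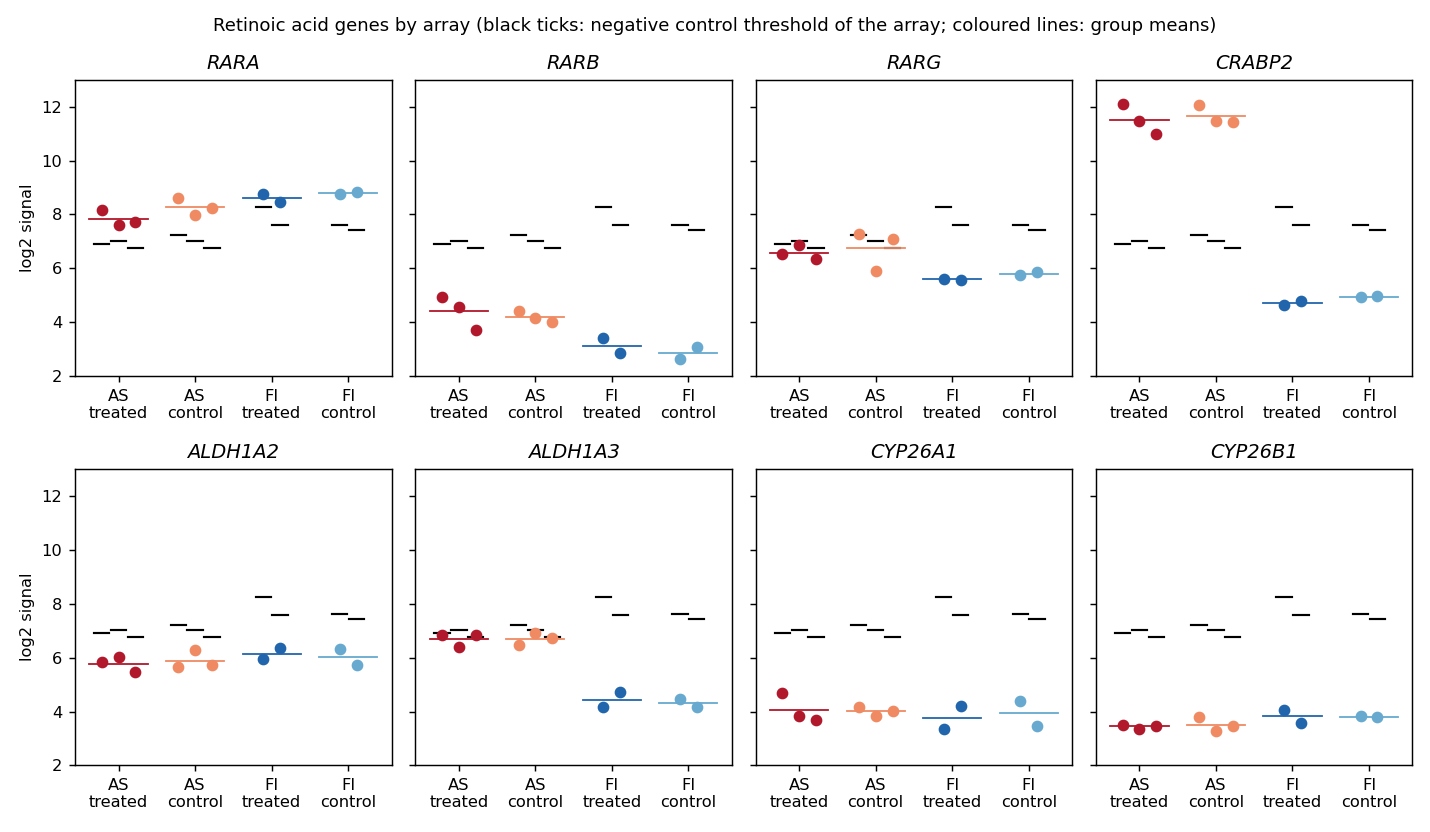
Log2 signal of the 8 retinoic acid genes on each array, with SK-N-AS treated and control arrays on the left and SK-N-FI treated and control arrays on the right of each panel. Points are arrays, coloured lines are group means and black ticks are the negative control threshold of the array. CRABP2 lies between 10.99 and 12.10 in SK-N-AS and between 4.63 and 4.97 in SK-N-FI, and RARB, CYP26A1, CYP26B1 and ALDH1A2 lie under the ticks throughout.

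The second question was how these genes differed between SK-N-AS and SK-N-FI, which was asked in treated and in control arrays separately. CRABP2 was far higher in SK-N-AS in both, RARB, RARG and ALDH1A3 had higher signals in SK-N-AS near or under background, and the direction for RARA depended on the scaling. In the treated arrays, limma called 4 of the 8 genes higher for SK-N-AS and 1 lower, where 59.0% of all probe sets were called, 11.2% higher and 47.8% lower. In the control arrays, which share no array with the treated, 4 were called higher and 0 lower, against 59.3% of all probe sets, 11.5% higher and 47.8% lower. After quantile normalization, 5 were called higher and 0 lower in either arm. Over all probe sets, 45.5% were then called in treated arrays (23.4% higher and 22.2% lower) and 46.7% in control arrays (23.9% higher and 22.8% lower). The median difference of the 8 genes, SK-N-AS minus SK-N-FI, was 0.64 in treated and 0.51 in control arrays, beside medians of -0.62 and -0.61 over all probe sets. After quantile normalization it was 1.10 and 1.28, beside 0.02 and 0.03. In bulk RNA fewer cells with a transcript and less of it per cell cannot be told apart. The line and any difference between array runs cannot be told apart either.

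RARA binds retinoic acid as a nuclear receptor and is present in most tissues. Its log2 signal in SK-N-AS was 8.17, 7.59 and 7.73 in treated arrays 28, 29 and 30 and 8.62, 7.97 and 8.23 in control arrays 25, 26 and 27. In SK-N-FI it was 8.76 and 8.46 in treated arrays and 8.76 and 8.83 in control arrays. Within each arm every SK-N-AS array lay lower than the SK-N-FI arrays, and over both arms the lines overlapped. Within the arm, 72.2% of all probe sets had lines that did not overlap in treated and 73.1% in control arrays. As deposited, the difference was -0.78 in treated arrays (limma adjusted p = 0.0204) and -0.52 in control arrays, which did not pass (limma adjusted p = 0.101). The direction turned after quantile normalization, where the difference was 0.76 in treated arrays (limma adjusted p = 0.0444) and 1.07 in control arrays (limma adjusted p = 0.00811). Centring on the negative control medians kept the direction as deposited in both arms. By rank within the array, RARA stood between the 69.6th and 79.2nd percentile in SK-N-AS and between the 63.8th and 66.3rd in SK-N-FI. Its excess over the array's own threshold was alike in range, 0.58 to 1.48 in SK-N-AS and 0.50 to 1.39 in SK-N-FI. The call as deposited also rested on single arrays, since it was lost in treated arrays without SK-N-FI array 1 (-0.63, adjusted p = 0.14) or SK-N-AS array 29 (-0.66, adjusted p = 0.0707), and gained in control arrays without SK-N-AS array 25 (-0.69, adjusted p = 0.0392). No direction is therefore given for RARA between the lines.

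RARB, the receptor whose gene holds the repeat printed above, had log2 signals of 4.93, 4.56 and 3.70 in treated and 4.42, 4.17 and 3.99 in control SK-N-AS arrays, against 3.40 and 2.84 in treated and 2.64 and 3.07 in control SK-N-FI arrays. All SK-N-AS arrays lay above all SK-N-FI arrays. The lines did not overlap for 4 of the 8 genes, against 59.1% of all probe sets. The signal difference was called in treated arrays (limma adjusted p = 0.00603) and in control arrays (limma adjusted p = 0.0045). It was not called in treated arrays without SK-N-FI treated array 2 (adjusted p = 0.0785) or in control arrays without SK-N-FI control array 1 (adjusted p = 0.0555). Since every value lay under the threshold, no fold is given. Between 45.6% and 73.4% of the negative control probe sets had a lower signal than RARB in SK-N-AS and between 7.19% and 31.2% in SK-N-FI.

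RARG had log2 signals of 6.52, 6.87 and 6.34 in treated and 7.28, 5.90 and 7.09 in control SK-N-AS arrays. In SK-N-FI they were 5.60 and 5.57 in treated and 5.76 and 5.85 in control arrays, all lower than in SK-N-AS. The signal was called higher in SK-N-AS in treated arrays (limma adjusted p = 0.0281) and in control arrays (limma adjusted p = 0.034), and control array 26 stood only just above SK-N-FI. The call was lost in treated arrays without SK-N-FI array 1 (adjusted p = 0.0995), SK-N-FI array 2 (0.11) or SK-N-AS array 29 (0.0904). It was lost in control arrays without SK-N-FI array 1 (adjusted p = 0.136), SK-N-FI array 2 (0.101), SK-N-AS array 25 (0.106) or SK-N-AS array 27 (0.11). No bound on the fold could be set, since the SK-N-AS mean lay under the SK-N-FI threshold.

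CRABP2 gave the widest separation of the lines among these genes. In SK-N-AS its log2 signal was 12.10, 11.48 and 10.99 in treated arrays 28, 29 and 30 and 12.05, 11.48 and 11.43 in control arrays 25, 26 and 27. In SK-N-FI it was 4.63 and 4.80 in treated and 4.92 and 4.97 in control arrays. Every SK-N-AS array stood above every SK-N-FI array by more than the whole spread within a line. CRABP2 ranked between the 91.6th and 95.2nd percentile of gene probe sets in SK-N-AS and between the 31.1st and 35.0th in SK-N-FI. The SK-N-AS mean was at least 12.2-fold higher in treated arrays (11.52 ± 0.56 in SK-N-AS, SD, n = 3, against 4.71 ± 0.12 in SK-N-FI, SD, n = 2; limma adjusted p = 4.45e-09). In control arrays it was at least 17.5-fold higher (11.65 ± 0.35 in SK-N-AS, SD, n = 3, against 4.95 ± 0.04 in SK-N-FI, SD, n = 2; limma adjusted p = 4.81e-09). Each bound sets the SK-N-AS mean against the threshold of the SK-N-FI arrays, since CRABP2 was below background there. The bound depends on the threshold, as it was 1.97-fold in treated and 1.67-fold in control arrays with the 99th percentile of the negative controls, a few of which were bright. It was 31.3-fold and 38.1-fold with the 90th percentile, and 29.8-fold and 40.4-fold after quantile normalization.

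Within SK-N-AS, CRABP2 was highest on treated array 28 and control array 25 and lowest on treated array 30. The first principal component of the 6 arrays over all gene probe sets, with 50.04% of the variance, had scores of -31.0, 6.71 and 50.6 on treated arrays 28, 29 and 30 and of -57.5, 26.9 and 4.33 on control arrays 25, 26 and 27, so that the same arrays stood at its ends. RARB followed the same order among the treated arrays. The part of this component in the spread of either gene was not tested.

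The enzymes were weaker. ALDH1A3, which oxidizes retinal to retinoic acid, had log2 signals of 6.84, 6.39 and 6.84 in treated and 6.47, 6.91 and 6.72 in control SK-N-AS arrays, against 4.16 and 4.71 in treated and 4.45 and 4.16 in control SK-N-FI arrays. The lines did not overlap, and the SK-N-AS values reached up to the threshold, passing it on array 30. The signal was called higher in SK-N-AS in treated arrays (limma adjusted p = 9.77e-06) and in control arrays (limma adjusted p = 5.58e-06), also after quantile normalization and without each array in turn. No fold is given for a gene at or under background in both lines. Between 90.2% and 95.4% of negative control probe sets lay below ALDH1A3 in SK-N-AS and between 53.9% and 66.2% in SK-N-FI.

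ALDH1A2, the main retinoic acid synthase of the early embryo, lay between 5.48 and 6.28 in SK-N-AS and between 5.73 and 6.34 in SK-N-FI. CYP26A1, the retinoic acid hydroxylase whose promoter is printed above, lay between 3.67 and 4.69 in SK-N-AS and between 3.36 and 4.39 in SK-N-FI, and its relative CYP26B1 between 3.29 and 3.78 in SK-N-AS and between 3.59 and 4.07 in SK-N-FI. Over both arms the lines overlapped for all 3. Within each arm they did not for CYP26B1, as for 72.2% of all probe sets in treated and 73.1% in control arrays. In control arrays that gap was under the printed digits (3.78 on SK-N-AS array 25 and on SK-N-FI array 2). None of the 3 genes was called between the lines as deposited or after quantile normalization (limma adjusted p between 0.14 and 0.876). These are background signals and say little about the transcripts.

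**Figure D2:**
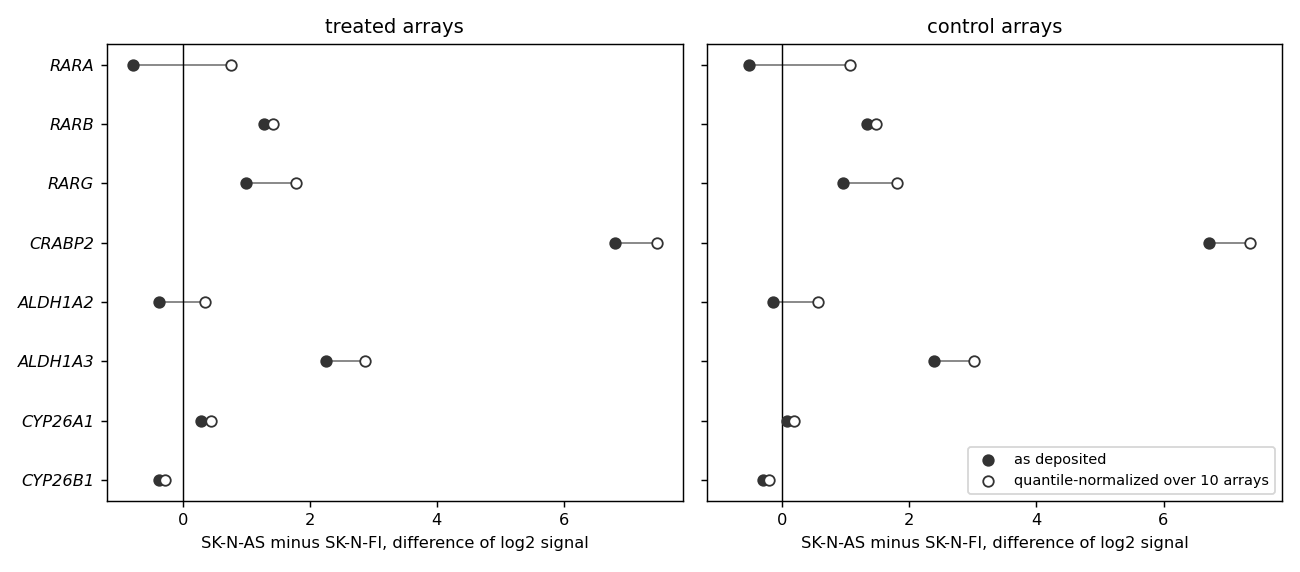
Difference of log2 signal, SK-N-AS minus SK-N-FI, for the 8 retinoic acid genes in treated arrays (left) and control arrays (right). Filled points are the values as deposited and open points those after quantile normalization over all 10 arrays. RARA and ALDH1A2 change sign between the scalings, while CRABP2 lies farthest right in both. For genes under background in a line, the points compare signals and give no fold.

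The third question was whether the conjugate altered these genes. None of the 8 passed the test in either line. Limma called 0% of the 21448 probe sets in SK-N-AS and 0% in SK-N-FI, with 557 and 611 probe sets at an unadjusted p under 0.05, and of the 8 genes 0 had an unadjusted p under 0.05 in either line. The median difference of the 8, treated minus control, was -0.08 in SK-N-AS and -0.07 in SK-N-FI, beside medians of 0.00 and -0.01 over all probe sets. A p that misses the threshold does not show that a gene stayed the same, so the intervals are given.

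For RARA the change was -0.44 in SK-N-AS (95% interval -1.01 to 0.12), from means of 7.83 ± 0.30 in treated and 8.27 ± 0.32 in control arrays (SD, n = 3; limma adjusted p = 1.00). In SK-N-FI it was -0.19 (-0.70 to 0.33), with 8.61 ± 0.21 in treated and 8.80 ± 0.05 in control arrays (SD, n = 2; limma adjusted p = 1.00). Treated and control arrays overlapped in SK-N-AS and did not in SK-N-FI, where arrays of the groups did not overlap for 27.8% of all probe sets. That gap for RARA was under the printed digits, since SK-N-FI treated array 1 and control array 1 both read 8.76. For CRABP2 the change in SK-N-AS was -0.13 (-0.84 to 0.58; limma adjusted p = 1.00). Its arrays overlapped, and the sign turned when treated array 30 was left out (0.14) or control array 25 (0.07).

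The 95% intervals of both RARA in SK-N-FI and CRABP2 in SK-N-AS lay within a 2-fold change in either direction, while that of RARA in SK-N-AS reached just past a 2-fold fall. For RARG in SK-N-AS, above background on 2 of 6 arrays, the change was -0.18 (-0.99 to 0.64). RARB and CYP26A1, the receptor targets, had signal differences of 0.20 (-0.51 to 0.92) and 0.06 (-0.59 to 0.71) in SK-N-AS and of 0.27 (-0.38 to 0.92) and -0.16 (-1.05 to 0.73) in SK-N-FI, all under background. Neither exceeded the negative controls after the conjugate. In SK-N-AS, where arrays of the groups did not overlap for 7.31% of all probe sets, treated and control arrays overlapped for all 8 genes. In SK-N-FI they overlapped for 5 of the 8, where arrays of the groups did not overlap for 27.8% of all probe sets. RARA, RARG and CRABP2 were lower on both treated arrays, the last 2 under background. For RARA the gap was under the printed digits, with 8.76 on treated array 1 and on control array 1.

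**Figure D3:**
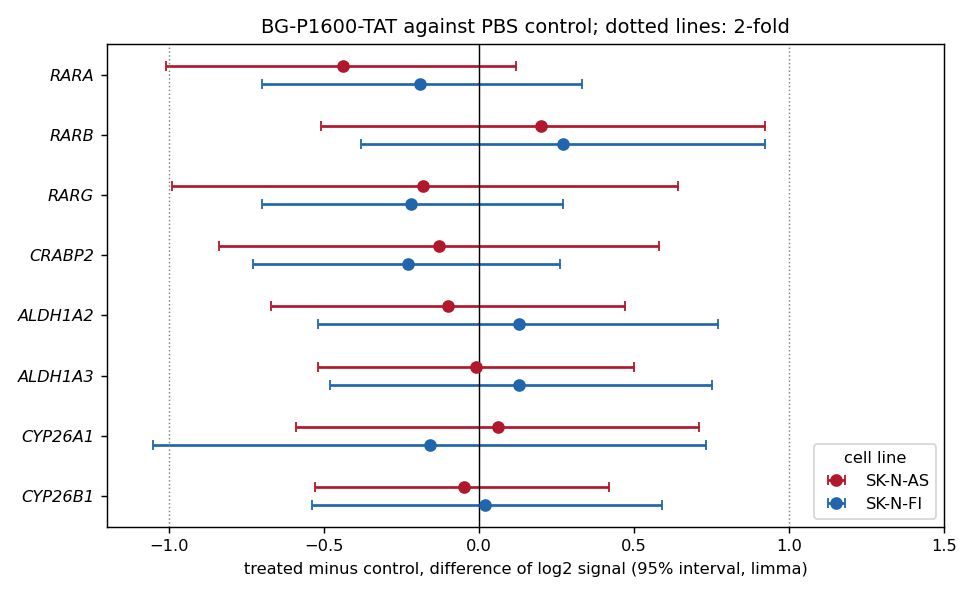
Treated minus control difference of log2 signal for the 8 retinoic acid genes, with SK-N-AS above SK-N-FI for each gene. Points are limma estimates, bars are 95% intervals and dotted lines mark a 2-fold change. Every interval includes 0, and the largest estimate in size is -0.44 for RARA in SK-N-AS.

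The treatment effects of the lines were also set against each other. The difference, SK-N-AS effect minus SK-N-FI effect, was called for 0% of all probe sets (457 at an unadjusted p under 0.05) and for 0 of the 8 genes, none of which had an unadjusted p under 0.05. It was -0.26 for RARA (95% interval -1.05 to 0.54) and 0.11 for CRABP2 (-0.85 to 1.06), whose SK-N-FI side is under background.

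The other genes of the pathway were taken from 4 lists. Between the lines, some members of the lists of retinol uptake, receptor cofactors and response genes passed the test in each direction. Within each arm, 9 of 15 uptake genes and 8 of 14 response genes passed in neither direction. Of the 2 retinoid X receptors measured, 1 was called lower in SK-N-AS in either arm and 0 higher. Of all probe sets, 47.8% were called lower in either arm, and 11.2% higher in treated and 11.5% in control arrays. RXRB, a partner of the retinoic acid receptors, had 8.91 ± 0.33 in SK-N-AS and 11.32 ± 0.11 in SK-N-FI treated arrays (SD, n = 3 and 2; limma adjusted p = 3.06e-06) and 8.93 ± 0.19 against 11.10 ± 0.02 in control arrays (limma adjusted p = 7.18e-06). After quantile normalization the differences were -0.77 (adjusted p = 0.0221) and -0.49 (adjusted p = 0.123), so that the call in controls was lost.

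Of 15 genes of retinoid uptake, storage and oxidation, 3 were called higher and 3 lower in SK-N-AS within each arm. The genes called differed in part between the arms, and the median difference was -0.05 in both. Of all probe sets, 11.2% were called higher and 47.8% lower in treated and 11.5% and 47.8% in control arrays. After quantile normalization, 3 of the 15 were called higher and 1 lower in treated and 4 higher and 1 lower in control arrays. The medians were then 0.29 and 0.39. Of all probe sets, 23.4% were then called higher and 22.2% lower in treated and 23.9% and 22.8% in control arrays. STRA6, the membrane receptor that takes up retinol from its plasma carrier, had the smallest p of the list. Its log2 signal was 7.66, 7.23 and 7.34 in treated and 7.69, 7.33 and 7.60 in control SK-N-AS arrays, against 13.25 and 13.12 in treated and 13.43 and 13.06 in control SK-N-FI arrays. It exceeded the threshold on all 10 arrays and lay far higher on the SK-N-FI arrays. The difference was -5.77 in treated arrays (95% interval -6.28 to -5.27; limma adjusted p = 1.67e-09) and -5.71 in control arrays (-6.21 to -5.20; limma adjusted p = 1.85e-09), and -4.44 and -4.35 after quantile normalization. STRA6 and CRABP2 thus stood in opposite order between the lines. RDH11, a retinal reductase, had called differences of -1.91 in treated and -1.81 in control arrays as deposited, and the calls were lost after quantile normalization (-0.29 and -0.18, adjusted p = 0.393 and 0.613). LRAT, which stores retinol as esters, and CYP26C1, another retinoic acid hydroxylase, had signals called higher in SK-N-AS in both arms and were above background on no array.

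Of 6 receptor cofactors, 1 was called higher and 4 lower in SK-N-AS in either arm. Of all probe sets, 47.8% were called lower in either arm, and 11.2% higher in treated and 11.5% in control arrays. After quantile normalization, 2 cofactors were called higher and 2 lower. Of all probe sets, 23.4% were then called higher and 22.2% lower in treated and 23.9% and 22.8% in control arrays. The median difference was -1.60 in treated and -1.70 in control arrays, and -0.10 and -0.23 after quantile normalization. NRIP1, a corepressor that binds liganded nuclear receptors, had log2 signals of 3.70, 4.44 and 4.59 in treated and 3.72, 4.59 and 3.54 in control SK-N-AS arrays. In SK-N-FI they were 11.65 and 12.16 in treated and 11.84 and 11.90 in control arrays. NRIP1 was under background on every SK-N-AS array, and its SK-N-FI signal was higher by at least 32.2-fold in treated and 29.2-fold in control arrays (limma adjusted p = 4.23e-09 and 3.13e-09). These bounds were 11.6-fold and 10.2-fold after quantile normalization and 4.48-fold and 3.66-fold with the 99th percentile of the negative controls. NCOA2, a coactivator of nuclear receptors, was at least 5.76-fold and 5.28-fold higher in SK-N-FI, but only 1.99-fold and 1.76-fold after quantile normalization, and with the 99th percentile no bound could be set. Its relative NCOA1, above background on 2 of 6 SK-N-AS arrays and all SK-N-FI arrays, had a signal called lower in SK-N-AS in both arms, and CREBBP, a histone acetyltransferase, had differences of -1.31 and -1.29. Neither of the last 2 was called after quantile normalization (limma adjusted p between 0.171 and 0.393).

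Of 14 genes known to respond to retinoic acid in other cells, 4 were called higher and 2 lower in SK-N-AS in either arm. Of all probe sets, 11.2% were called higher and 47.8% lower in treated and 11.5% and 47.8% in control arrays. After quantile normalization, 6 of the 14 were called higher and 2 lower. Of all probe sets, 23.4% were then called higher and 22.2% lower in treated and 23.9% and 22.8% in control arrays. The median difference was 0.08 in treated and 0.12 in control arrays, and 0.50 and 0.45 after quantile normalization. TGM2, the tissue transglutaminase, had log2 signals of 12.08, 11.78 and 10.78 in treated and 11.91, 10.80 and 11.88 in control SK-N-AS arrays, against 4.83 and 5.00 in treated and 4.36 and 4.76 in control SK-N-FI arrays. It was above background only in SK-N-AS, at least 12.3-fold higher there in treated and 16.1-fold higher in control arrays (limma adjusted p = 4.93e-08 and 3.19e-08). These bounds were 30.4-fold and 37.5-fold after quantile normalization and 2.00-fold and 1.53-fold with the 99th percentile. NR2F1, an orphan nuclear receptor of neural crest, was at least 2.34-fold higher in SK-N-AS in treated arrays, where SK-N-FI was under background, and higher by 1.39 (log2) in control arrays. That bound was 6.39-fold after quantile normalization, and none could be set with the 99th percentile. RET, the receptor tyrosine kinase, had differences of -2.31 and -2.50. Both kept these directions after quantile normalization (3.23 and 2.84 for NR2F1, -0.85 and -1.08 for RET). HOXD4 had a signal called lower in SK-N-AS in both arms and was above background on no array.

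**Figure D4:**
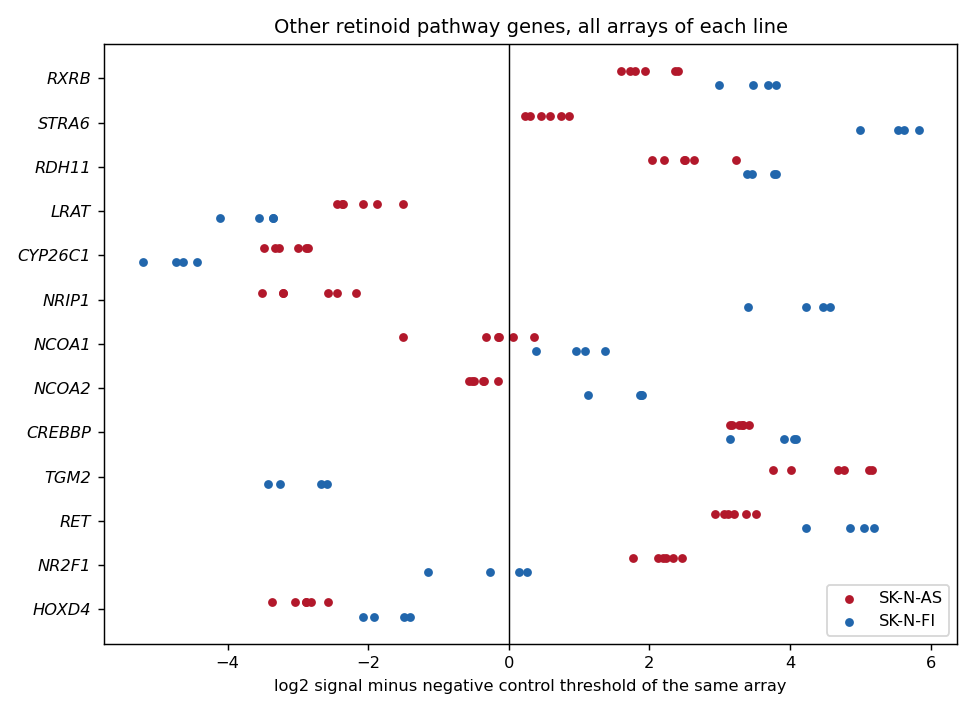
Log2 signal minus the negative control threshold of the same array for 13 other genes of the pathway, on 6 SK-N-AS arrays (upper row of points) and 4 SK-N-FI arrays (lower row). Points right of 0 are above background. STRA6 lies between 0.23 and 0.85 in SK-N-AS and between 5.00 and 5.83 in SK-N-FI, and TGM2 and NRIP1 lie on opposite sides of 0 in the lines.

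In the comparison of treated with control arrays, limma called 0 of these genes in SK-N-AS and 0 in SK-N-FI, where 0% of all probe sets were called, and 1 in SK-N-AS and 0 in SK-N-FI had an unadjusted p under 0.05. The smallest p values were those of RDH12, a retinal reductase, in SK-N-AS (-0.53, 95% interval -1.05 to -0.01; limma adjusted p = 1.00) and of NR2F1 in SK-N-FI (-0.51, -1.04 to 0.01; limma adjusted p = 1.00). RDH12 was under background on all arrays. NR2F1 had 7.21 ± 0.15 in treated and 7.73 ± 0.20 in control SK-N-FI arrays (SD, n = 2) and was above background on the control arrays alone. TGM2, bright in SK-N-AS, averaged 11.54 ± 0.68 in treated and 11.53 ± 0.63 in control arrays there (SD, n = 3).

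The genes whose pattern over the 10 arrays was closest to CRABP2, by the root mean squared difference of log2 signals after each gene was centred, were IL32, a proinflammatory cytokine (0.219), and MAGEC2, a cancer testis antigen (0.269), among 7887 genes above background on all arrays of a line. CRABP2, IL32 and MAGEC2 entered through SK-N-AS alone, and their SK-N-FI means lay under the thresholds there, so that the likeness rests partly on background signal. IL32 averaged 12.28 in treated and 12.67 in control SK-N-AS arrays, against 5.82 and 5.96 in SK-N-FI. For RARA they were CHPT1, a choline phosphotransferase (0.129), and MPV17, an inner mitochondrial membrane protein (0.134). The 10 arrays form 2 lines, so this likeness mostly describes the step between them. It was taken on the values as deposited, and for RARA the direction of that step turned after quantile normalization.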

How the data were processed

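The authors deposited 1 log2 signal for each probe set and array. Per the submitters' processing notes, RMA and Transcriptome Analysis Console 4.0.1.36 were used, with no role given for either. RMA as such equalises the distributions of arrays, so that a shift shared by most genes would be lost. Per the labels' protocols, RNA was extracted with Trizol and labelled by a whole-transcript sense target protocol. Array files and a genome build were not given in the sources used here. Depth has no count on arrays, and the number of arrays limits precision. No arrays held identical values (0 pairs). Of 21448 gene probe sets, 17709 had 1 symbol each and 3739 were unnamed.

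Groups came from the sample titles. For SK-N-FI the design text speaks of more replicates, and 2 of each condition were used. The labels do not state separate cultures for SK-N-AS arrays, so p-values there measure spread that may be technical. Comparisons used limma 3.58.1 in R 4.3.3 (lmFit, eBayes), within each line for treatment and on all 10 arrays in 4 groups for the lines and for the difference of effects. Benjamini-Hochberg adjustment covered all 21448 probe sets, and calls needed an adjusted p under 0.05. Fits were tested on simulated data. Levels used Python 3.11.15 with pandas 2.3.3. All 8 members were named, and of each other list at most 4 genes with the smallest p, between lines only those called in both arms. Members and lists were chosen with earlier results of these data known. Alternatives covered scaling, dim probe sets, eBayes settings, array weights, a shared fit, the mean of both arms, a fold threshold, other background percentiles, a replicate block and leaving out each array. The crossed block and the bounds under other thresholds were chosen after seeing the data.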

Additional observations from a re-analysis of the deposited data

How the results depend on the processing

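Treatment calls were 0 under every alternative run, a replicate block included. In SK-N-FI, deviations of same-numbered arrays correlated at -0.171. This single value gives no sign that the numbers pair the arrays, and it cannot exclude pairing. The replicate block and a crossed block chosen after seeing the data each called 0 probe sets. Other values follow, with causes not tested. With array weights the SK-N-AS treatment difference of CYP26A1 was -0.02 and the difference of effects between lines for RARB 0.09, and that for RARG was -0.02 after quantile normalization. Between lines, quantile normalization gave 0.76 in treated and 1.07 in control arrays for RARA and 0.36 and 0.56 for ALDH1A2. Centring arrays on their median gave 0.06 and 0.32 for RARA, 0.47 and 0.70 for ALDH1A2, and 0.46 and 0.54 for CYP26B1. Centring on the negative controls gave 0.00 for ALDH1A2 in control arrays, and the other 15 line differences of the 8 genes kept their direction and call. Another fit tested only probe sets above the negative controls on all arrays of a compared group, so that fewer could be called. Of the 8 genes only RARA and CRABP2 entered it, CRABP2 through SK-N-AS alone. It called 7596 probe sets, RARA and CRABP2 among them, in treated arrays and 8141, with CRABP2 but not RARA, in control arrays. The number of probe sets tested is not given here, so these counts are not shares. With a 2-fold threshold on the signal difference, RARG lost its call in both arms and RARA its call in treated arrays. RARB, CRABP2 and ALDH1A3 kept theirs in both arms. With the 99th percentile, 1 gene was above background on all SK-N-AS arrays and 0 on all SK-N-FI arrays.

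Leaving out each array in turn, the line comparison called 10802 to 12210 probe sets and 3 to 5 of the genes in treated arrays and 10722 to 12358 probe sets and 2 to 4 of the genes in control arrays. CRABP2 and ALDH1A3 were called each time. The line difference of CYP26A1 ran over -0.12 to 0.71 in treated and -0.38 to 0.53 in control arrays, and that of ALDH1A2 over -0.43 to 0.15 in control arrays. Treatment differences in SK-N-AS ran over -0.06 to 0.55 for RARB, -0.60 to 0.09 for RARG, -0.42 to 0.14 for CRABP2, -0.25 to 0.26 for CYP26A1, -0.16 to 0.08 for CYP26B1, -0.23 to 0.10 for ALDH1A2 and -0.13 to 0.14 for ALDH1A3. In SK-N-FI they ran over -0.02 to 0.55 for RARB, -0.62 to 0.29 for CYP26A1, -0.22 to 0.26 for CYP26B1, -0.16 to 0.42 for ALDH1A2 and -0.14 to 0.41 for ALDH1A3. The difference of effects ran over -0.34 to 0.29 for RARB, -0.39 to 0.30 for RARG, -0.18 to 0.37 for CRABP2, -0.23 to 0.67 for CYP26A1, -0.32 to 0.16 for CYP26B1, -0.52 to 0.06 for ALDH1A2 and -0.42 to 0.13 for ALDH1A3. Leaving out an array in SK-N-FI leaves 1 in its group, which is then assumed to vary like the other groups. Signal under the negative control threshold limits what can be said of RARB, CYP26A1, CYP26B1 and ALDH1A2 in both lines.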

Other observations

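Other genes of the lists were looked at after their values were seen. PRAME, a repressor of the retinoic acid receptors that many tumours express, was above background on all 10 arrays. It averaged 13.34 in SK-N-AS and 12.81 in SK-N-FI treated arrays and 13.44 against 12.69 in control arrays, differences of 0.53 and 0.75 that were called in both arms (limma adjusted p = 0.0425 and 0.00733) and were 1.68 and 1.88 after quantile normalization. MEIS1, a homeobox cofactor, was higher in SK-N-AS by 1.38 and 1.12 (limma adjusted p = 0.000247 and 0.00117), and by 2.93 and 2.70 after quantile normalization. RARRES2, the gene of chemerin, was above background on 5 of 6 SK-N-AS arrays and on 0 of 4 SK-N-FI arrays. FABP5, another carrier of retinoic acid, averaged 8.47 in SK-N-AS and 7.88 in SK-N-FI treated arrays (limma adjusted p = 0.0297) and 8.29 against 8.01 in control arrays, where it was not called (limma adjusted p = 0.283). After quantile normalization its differences were 2.03 and 1.76, and it was called in both arms (limma adjusted p = 1.64e-05 and 4.93e-05).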
